A study of Mus musculus with 35 samples.

Results

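The suprarenal aorta of mice given angiotensin II (Ang II) for 14 days was compared with that of mice given it for 7 days, on 5 and 4 arrays out of 35 in the series, chosen by their titles. All mice were male and ApoE-/-, a strain without apolipoprotein E that is prone to atherosclerosis, so the deletion is shared by every group and has no control here. A subcutaneous osmotic minipump, placed at 12 to 14 weeks of age, delivered Ang II at 1000 ng/kg/min or the saline vehicle. The tissue of the 14-day Ang II group is labelled an aneurysm, with no word on dissection. The tissue of the 7-day Ang II group is labelled an aneurysm that had not dissected, and 3 dissected aortas of that time were kept apart. Saline aortas of 14 and 7 days, 6 of each, served to compare the times without Ang II. Each array held the RNA of 1 whole suprarenal aorta, perfused with saline and then frozen, so that smooth muscle, adventitia, clinging tissue and infiltrating cells were measured together. In such bulk tissue fewer cells of a type and less RNA per cell cannot be told apart.

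Each value below is a log2 ratio of the aorta, labelled with Cy5 after linear amplification, over a universal mouse reference RNA, labelled with Cy3 by direct reverse transcription. The dyes were never swapped, so ratios are read only as differences between aortas, and a level is not compared between genes. Of the gene spots, 51.1 to 84.8% were well above background in the aorta channel on the 5 arrays of 14 days and 52.4 to 58.4% on the 4 arrays of 7 days. The highest share, 84.8%, was on 14-day replicate 4, and the other 14-day arrays lay at 62.2% or below. Replicate 2 of 14 days had a median correlation of 0.835 with its group over all genes, against 0.905 to 0.928 for the other 4 arrays of 14 days and 0.91 to 0.924 for the 4 arrays of 7 days. The smooth muscle genes Acta2 and Myh11 were well above background on all 9 arrays, and the smooth muscle list as a whole is given below. Apoe was also measured on all 9 arrays, but where its probe lies relative to the disrupted part of the gene is not given in the sources used here, so it checks nothing.

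Infusion of Ang II into hyperlipidaemic mice is a standard model of aneurysm of the abdominal aorta, in which the suprarenal segment dilates and can dissect. Ang II acts on smooth muscle, fibroblasts and leukocytes through its type 1 receptor and drives proliferation, matrix deposition and macrophage entry. The comparison of 14 with 7 days asks how the tissue differed between an early and a later time of continued infusion.

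Between the times, 1390 of 18670 genes were called, which is 7.45% of those tested, at an adjusted p of 0.05 (limma, Benjamini-Hochberg over all genes). Of these, 726 were higher after 14 days (3.89%) and 664 lower (3.56%). At least 2-fold differences were more one-sided, with 504 called genes higher (2.7% of those tested) and 185 lower (0.991%). The values of the 2 groups did not overlap for 669 of the genes called higher and 552 of those called lower, and over all genes tested they did not overlap for 1780 in the higher direction (9.53%) and 1593 in the lower (8.53%). The median difference over all genes was -0.02. Between saline aortas of 14 and 7 days limma called 0 genes, and 420 passed an unadjusted p of 0.05 (2.25%). The saline comparison was run with limma only, on the same model.

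The count rested on few arrays. It was 545 without 14-day replicate 1, 605 without 14-day replicate 5, 333 without 7-day replicate 1, 170 without 7-day replicate 2 and 926 without 7-day replicate 4. Slide and scan day were taken from the file headers. Each scan day held arrays of both groups, but of the slides only 1, with 14-day replicate 4 and 7-day replicate 3, held both. On that slide the median difference, 14 minus 7 days and with 1 array of each, was -1.01 over the cell cycle list. It was 0.48 for oxidative phosphorylation, 0.65 for cholesterol synthesis and uptake and 4.01 for chromaffin cells and sympathetic neurons. For collagen folding and crosslinking it was -0.17, for fibrillar, short-chain and other collagens -0.06 and for matricellular proteins -0.14. These 3 matrix lists had medians of -0.86, -1.04 and -0.98 over all 9 arrays. With the slide as a fixed block 156 genes were called, and with the scan day as a block 826. Within the first scan day (14-day replicates 2 and 3, 7-day replicates 1, 2 and 4) 146 genes were called, and within the second (14-day replicates 1, 4 and 5, 7-day replicate 3) 2. With scores of brown adipocyte, chromaffin and sympathetic neuron, kidney tubule and hepatocyte markers as covariates, 1 gene was called. It was the meiosis gene M1ap, at -1.34. Of these scores the neuron score holds genes reported below. In that fit 946 of 18670 genes passed an unadjusted limma p of 0.05, about the share that this threshold passes by chance. Under scale normalization between arrays 43 genes were called, all 43 of them lower and among the 1390, and under median centring 17 were higher and 106 lower. With the log ratios of the scanner software 653 were higher and 1056 lower, with a median of -0.11 over all genes.

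**Figure D1:**
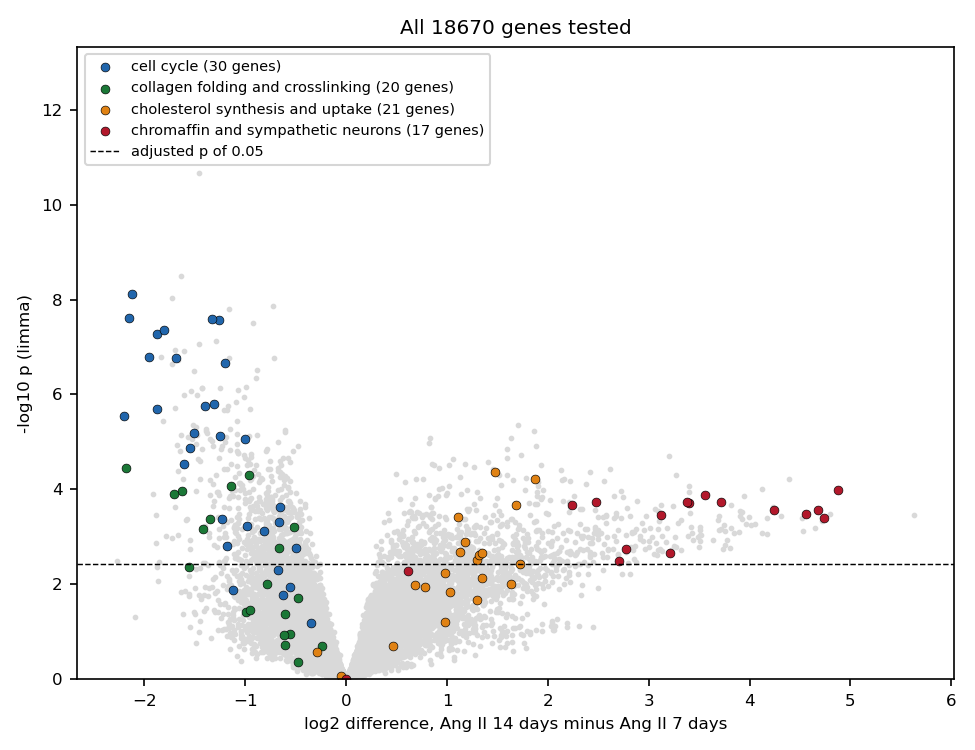
Log2 difference of each of 18670 genes, 14-day minus 7-day Ang II aortas (horizontal), against -log10 of its unadjusted limma p (vertical), with 4 gene lists in colour and a dashed line at an adjusted p of 0.05. Cell cycle genes lie at the upper left between -2.20 and -0.35, and genes of chromaffin cells and sympathetic neurons reach 4.88 at the right with larger p-values.

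Genes of cell division had the highest share of falls of the 41 lists. Of 30 cell cycle genes 25 fell and none rose, against 3.56% of all genes called lower, and all 30 differences were below 0, with a median of -1.26. The mean level of the list was -3.46, -2.58, -2.92, -2.81 and -2.86 on the 14-day Ang II arrays, against -1.46, -1.43, -1.90 and -1.78 on the 7-day Ang II arrays. Every 14-day array thus lay below every 7-day array. Saline aortas spanned -3.60 to -2.90 at 14 days and -3.85 to -3.01 at 7 days, so that the 7-day Ang II arrays lay above all of them and the 14-day Ang II arrays overlapped them.

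Mki67, the marker of cycling cells Ki-67, had log2 ratios of -4.45, -3.22, -3.77, -3.31 and -3.35 at 14 days, against -1.44, -1.09, -1.68 and -1.49 at 7 days. All 5 arrays of 14 days were below all 4 of 7 days, and Mki67 fell by 2.20 on the log2 scale (standard error 0.385, limma adjusted p = 0.00118). Kif20a, a kinesin of the central spindle, was at -4.12, -3.00, -3.57, -3.04 and -3.38 at 14 days and at -1.12, -1.33, -1.17 and -1.58 at 7 days. It fell by 2.12 (0.27, limma adjusted p = 4.3e-05) with more than 1 log2 unit between the nearest arrays of the groups. The centromere kinesin gene Cenpe fell by 2.15, Birc5, which encodes survivin of the chromosomal passenger complex, by 1.95, and the kinetochore gene Nuf2, which is not in the list, by 1.84. Ccna2, the cyclin of S phase and mitotic entry, fell by 1.87.

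Among genes of DNA synthesis, Rrm2, the regulated subunit of ribonucleotide reductase, fell by 1.87 and was at -4.09, -2.78, -3.25, -2.79 and -2.68 at 14 days, against -1.33, -1.03, -1.45 and -1.17 at 7 days. The sliding clamp gene Pcna and thymidylate synthase, Tyms, fell by 0.66 and 1.20. The helicase genes Mcm2, Mcm3, Mcm5 and Mcm6 were at -0.68, -0.56, -0.35 and -1.12 and were not called, nor was the spindle motor gene Kif11 at -0.63. Top2a, the topoisomerase of dividing cells, fell by 0.98. The call of Top2a was lost without 14-day replicate 1 or 5 or 7-day replicate 1 or 2, with adjusted p of 0.0556 to 0.0928 (limma), whereas those of Mki67, Kif20a, Cenpe, Birc5, Nuf2, Ccna2 and Rrm2 were kept without any 1 of the 9 arrays. Of the list, 18 to 26 genes were called lower when 1 array was left out, 17 with the slide as a fixed block and 15 under median centring. No member of the list was called under scale normalization between arrays or with the tissue scores as covariates, where its median was -0.78 and -0.83. The median was -1.20 within the first scan day and -1.12 within the second.

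Promoters of these genes are shown because the genes moved together and because 2 short elements, the CCAAT box and the cell cycle genes homology region TTTGAA, are known from promoters of mitotic genes. In RefSeq promoters (GRCm38.p6), searched on both strands over 250 bases before the start site, TTTGAA or its reverse TTCAAA occurred in 7 of the 21 fallen cell cycle genes with a promoter in the table (33.3%), against 13.5% of 12247 genes tested that had one. CCAAT or its reverse ATTGG occurred in 18 of the 21 (85.7%), against 39.6% of all. Over all 26 genes of the list with a promoter, called or not, TTTGAA occurred in 9 (34.6%) and CCAAT in 23 (88.5%). The fallen genes thus did not exceed their list. A match is a description of letters and not a site or a cause. The sequences below run 5′ to 3′ from 150 bases before the start site to the base before it, with matches in capitals, and no match overlaps another. They are the 3 genes with the largest falls in the list among those with TTTGAA in this window. Mki67 lies at chr7:135716380-135716529 on the minus strand, Prc1, a microtubule bundler of the central spindle, at chr7:80294326-80294475 on the plus strand, and Cdc20, an activator of the anaphase-promoting complex, at chr4:118437344-118437493 on the minus strand.
Mki67: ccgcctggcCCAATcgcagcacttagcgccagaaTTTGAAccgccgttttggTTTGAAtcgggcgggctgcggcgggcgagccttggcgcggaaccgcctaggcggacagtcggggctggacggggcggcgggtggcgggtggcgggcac
Prc1: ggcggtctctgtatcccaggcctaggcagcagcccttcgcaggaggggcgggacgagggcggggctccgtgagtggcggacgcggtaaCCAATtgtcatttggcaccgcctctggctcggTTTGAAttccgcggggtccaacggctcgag
Cdc20: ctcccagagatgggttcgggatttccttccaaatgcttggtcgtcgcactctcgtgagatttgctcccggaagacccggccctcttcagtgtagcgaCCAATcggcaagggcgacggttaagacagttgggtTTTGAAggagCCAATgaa
The Mki67 window holds TTTGAA at -116 and -98 and CCAAT at -141, counted to the first base of the match from the start site. Prc1 holds them at -30 and -62. Cdc20 has TTTGAA at -18, between CCAAT at -53 and -8. Prc1 fell by 1.81 (0.252, limma adjusted p = 7.63e-05) and Cdc20 by 1.69 (0.251, limma adjusted p = 0.000154), without overlap of the groups in either.

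Genes that fold and crosslink collagen formed the next group of falls. Of 20 such genes 9 fell and none rose, against 3.56% of all genes called lower, all 20 differences were below 0, and the median was -0.86. Lox, the lysyl oxidase that starts crosslinks in collagen and elastin, was at -0.80, -1.07, -0.77, -0.78 and -0.88 at 14 days, against 1.51, 1.65, 0.84 and 1.27 at 7 days. The 5 values of 14 days lay close together and below the lowest value of 7 days, and Lox fell by 2.18 (0.451, limma adjusted p = 0.00515). Its relatives Loxl2 and Loxl3 fell by 1.35 and 1.42, also without overlap. Plod2, the lysyl hydroxylase of collagen telopeptides, fell by 1.63, and the procollagen chaperone Fkbp10 by 1.71.

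The call of Lox was kept without any 1 array. Without 7-day replicate 2, adjusted p was 0.0909 for Loxl2, 0.103 for Loxl3, 0.0561 for Plod2 and 0.0707 for Fkbp10 (limma), and 2 of the 20 genes were called. Loxl2 and Loxl3 also lost their calls without 14-day replicate 1 or 7-day replicate 1, and Loxl3 without 14-day replicate 5. With the slide as a fixed block 1 of the 20 genes was called, and with the tissue scores as covariates 0, where the median was -0.26.

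Collagen chains themselves were lower in value but seldom called. Of 17 collagens in a list of fibrillar, short-chain and other chains 2 fell (3.56% of all genes), with a median of -1.04. The other chains are those of type VI, fibril-associated ones such as Col12a1, and Col15a1 and Col18a1. Col12a1, a collagen that decorates fibrils, was at 0.47, 0.81, 0.47, 1.08 and 0.16 at 14 days, against 1.91, 3.12, 2.22 and 1.60 at 7 days, and fell by 1.62 (0.348, limma adjusted p = 0.00683). Col5a2, a chain of the type V collagen that seeds fibrils, fell by 1.73 (0.477, limma adjusted p = 0.0277). Both groups of values were apart in these genes, and both calls were lost without 7-day replicate 2, with adjusted p of 0.0678 and 0.12 (limma), that of Col5a2 also without 14-day replicates 1, 2 or 5 or 7-day replicate 1.

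Col1a1, which encodes the more abundant chain of collagen I, was at 2.96, 2.91, 3.52, 4.14 and 2.47 at 14 days and at 4.57, 4.95, 3.96 and 4.09 at 7 days. Replicate 4 of 14 days lay inside the range of 7 days, and the difference of -1.19 was not called (standard error 0.676, limma adjusted p = 0.268). Col3a1 at -1.07 (limma adjusted p = 0.254) and Col8a1 at -1.56 (limma adjusted p = 0.0682) were not called either. Relative to saline, in comparisons that share their Ang II arrays with the one above, Col1a1 was 3.01 higher at 14 days and 4.56 higher at 7 days. Col3a1 was 2.37 higher at 14 days and 3.81 at 7 days, and Col8a1 3.03 and 4.85. The mean level of the collagen list was 1.40 to 2.63 on the 14-day Ang II arrays, 2.66 to 3.46 on the 7-day Ang II arrays, -0.28 to 1.05 in saline at 14 days and -0.76 to 1.00 in saline at 7 days. The Ang II aortas of both times thus lay above all saline aortas in this measure. Col4a1 of the basement membrane fell by 1.06, the only call among 10 genes of that list, and lost it without 7-day replicate 1 or 2, with adjusted p of 0.0649 and 0.0666 (limma).

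**Figure D2:**
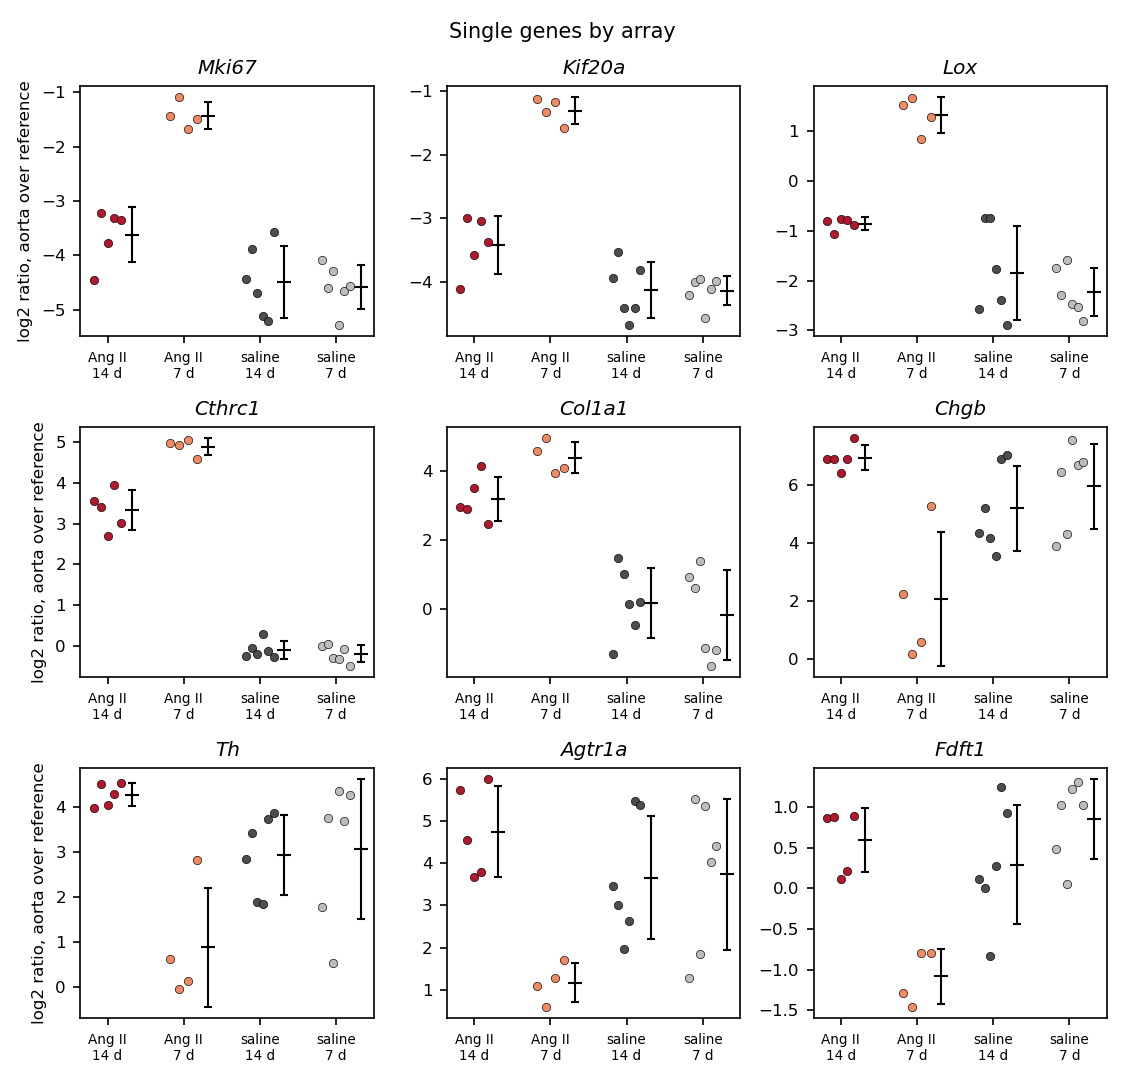
Log2 ratio of aorta over reference (vertical) of 9 genes on each array of the 14-day Ang II, 7-day Ang II, 14-day saline and 7-day saline groups, with the mean and SD beside the points. Mki67, Kif20a, Lox and Cthrc1 show 7-day Ang II aortas above every other aorta, and for Chgb and Th 7-day replicate 4 lies above the other 3 arrays of its group.

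Secreted matrix proteins and their regulators followed the same direction for fewer genes. Of 21 matricellular proteins and proteoglycans 4 fell, against 3.56% of all genes, with a median of -0.98. Cthrc1, a secreted protein of activated fibroblasts, was at 3.55, 3.41, 2.69, 3.95 and 3.02 at 14 days, against 4.98, 4.92, 5.03 and 4.58 at 7 days. It fell by 1.55 (0.434, limma adjusted p = 0.0295) without overlap, and both groups lay above the saline means of -0.09 at 14 days and -0.18 at 7 days. Versican (Vcan), a large proteoglycan of provisional matrix, fell by 1.70, tenascin C (Tnc) by 1.58 and the Wnt-induced Ccn4 by 1.55. Periostin (Postn) at -1.17, Ccn2 at -1.62, Thbs1 at -0.84 and Spp1 at -1.55 were not called. All 4 calls were lost without 7-day replicate 2, with adjusted p of 0.0969 for Cthrc1, 0.0829 for Vcan, 0.0887 for Tnc and 0.157 for Ccn4 (limma). Ccn4 lost it also without 14-day replicates 1, 2 or 5 or 7-day replicate 1, Tnc without 14-day replicate 5, and Cthrc1 without 14-day replicates 1, 3 or 5 or 7-day replicates 1 or 3. Cthrc1 lost its call also under median centring, a background offset of 16, the log ratios of the scanner software, the deposited series table, the slide as a fixed block, the scan day as a block, within either scan day and with the tissue scores as covariates, and kept it under scale normalization, at -1.81 (limma adjusted p = 0.0181).

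Of 17 elastic fibre genes 2 fell, against 3.56% of all genes. Fbln2, which bridges elastin and basement membranes, was at -1.24, -1.12, -0.84, -0.81 and -1.14 at 14 days and at 0.40, 0.61, -0.08 and -0.13 at 7 days, a fall of 1.23 (0.236, limma adjusted p = 0.00274) that was kept without any 1 array. Emilin1, a glycoprotein of the elastin surface, fell by 1.09 (limma adjusted p = 0.042), and leaving out 14-day replicates 1, 2, 3 or 5 or 7-day replicates 1, 2 or 4 raised that p to between 0.0589 and 0.137. Elastin (Eln) at -0.17 and fibrillin 1 (Fbn1) at -1.49 were not called, and Fbn1 was near the threshold with a limma adjusted p of 0.0573.

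Of 27 proteases and inhibitors 2 fell, a share near the 3.56% of all genes called lower, and the list as a whole is not read as changed. Timp1, the inducible inhibitor of metalloproteinases, was at -0.22, 1.09, 1.22, 1.25 and 2.05 at 14 days, against 3.62, 2.87, 2.51 and 2.85 at 7 days. It fell by 1.88 (0.533, limma adjusted p = 0.0309) and the groups were apart, but the call was lost without 14-day replicate 1 or 7-day replicates 1, 2 or 4, with adjusted p of 0.0533 to 0.117. The aggrecanase gene Adamts4 fell by 0.69 with overlapping groups and lost its call without 14-day replicates 1 or 3 or 7-day replicates 1 or 4, with limma adjusted p of 0.0536 to 0.114. Of the metalloproteinases, Mmp2 was at 0.32, Mmp3 at 0.18, Mmp9 at 0.03, Mmp13 at -0.46 and Mmp14 at -1.09, none called. Mmp12, the macrophage elastase gene, was well above background on 1 of the 5 arrays of 14 days and on none of 7 days, and no fold is given.

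Other large falls lay outside the matrix lists or on their edge. Esm1, a proteoglycan of activated endothelium, fell by 2.27, the largest fall among the genes named by the rule in the processing notes, and was at 2.36, 2.01, 1.12, 1.32 and 1.09 at 14 days and at 3.47, 3.78, 4.28 and 3.87 at 7 days. The groups were apart, as the rule required, and its limma adjusted p of 0.0471 became 0.0584 to 0.122 as each of the 9 arrays was left out. Tnfrsf11b, which encodes the decoy receptor osteoprotegerin, fell by 1.85 (limma adjusted p = 0.0481) and likewise lost its call without any of the 9 arrays, with p of 0.056 to 0.149. Ckap4, a membrane protein of the endoplasmic reticulum, was at -0.96, -0.39, -0.15, 0.21 and -0.46 at 14 days and at 1.64, 2.11, 0.69 and 1.83 at 7 days, a fall of 1.91 (limma adjusted p = 0.0104) that missed the threshold without 7-day replicate 2 (0.0682). Piezo2, a stretch-gated channel, fell by 1.10 (limma adjusted p = 0.0211), though 14-day replicate 4 lay inside the range of 7 days. Its call was kept under scale normalization at -1.39 and lost without 14-day replicates 1 or 5 or 7-day replicates 1 or 2, with p of 0.0522 to 0.0905.

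In the list of the secretory pathway and ER stress 5 of 24 genes fell, against 3.56% of all genes, and 1 rose, against 3.89%, with a median of -0.54. Kdelr2 and Kdelr3, receptors that return chaperones to the endoplasmic reticulum, fell by 1.35 and 1.36, and the translocon genes Sec61a1 and Sec61b by 0.95 and 0.96. In Kdelr2 the 14-day values of -0.36, -0.32, -0.12, -0.20 and -0.25 stood against 1.25, 1.38, 1.18 and 0.58 at 7 days, without overlap. The chaperone gene Dnajb9 rose by 0.73, the only rise of the list, and no gene of it was called higher without 14-day replicates 1, 2, 3 or 5 or 7-day replicates 1, 2 or 4. The chaperone gene Hspa5 at -0.40 and the stress-induced factor gene Ddit3 at 0.25 were not called. No gene of the list was called lower without 7-day replicate 2, where limma adjusted p was 0.0665 for Kdelr2, 0.122 for Kdelr3, 0.0818 for Sec61a1 and 0.0528 for Sec61b. Kdelr3 lost its call also without 14-day replicates 1 or 5 or 7-day replicate 1, and Sec61a1 without 7-day replicate 1.

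Calls among markers of the cells of the vessel wall were few, as over all genes, of which 3.89% were called higher and 3.56% lower. The counts are not read as a result about these lists. None of 16 contractile smooth muscle genes was called, with a median of -0.71. Acta2, smooth muscle actin, was at 2.29, 1.55, 1.61, 2.06 and 0.34 at 14 days, against 2.98, 2.52, 2.69 and 3.18 at 7 days. The groups were apart, but the difference of -1.27 had a standard error of 0.73 (limma adjusted p = 0.276), and Myh11 was at -0.14. Among 15 endothelial genes Esm1 alone was called, with a median of 0.19 over the list and Nos3 at -0.07. Among 14 genes of fibroblasts and adventitia only S100a4, a calcium-binding protein shared with leukocytes, was called. It fell by 1.79 (limma adjusted p = 0.0268) and lost the call without 14-day replicates 1 or 5 or 7-day replicates 1 or 2, with p of 0.0539 to 0.105. Of 26 genes of TGF-beta and BMP signalling none was called, with Tgfb1 at -0.43 and Tgfb2 at -0.99.

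Immune genes gave few calls, as did all genes, of which 3.89% were called higher and 3.56% lower. The counts of calls are not read as a result about these lists. None of 28 genes of monocytes and macrophages was called, while 24 of the differences were below 0 and the median was -0.63. The mean level of the list was 1.32 to 1.64 on the 14-day Ang II arrays, 1.72 to 2.36 on the 7-day Ang II arrays, 0.33 to 1.47 in saline at 14 days and -0.19 to 0.57 in saline at 7 days. The Ang II groups did not overlap in this mean, and 8 of the 28 genes were lower without overlap, against 8.53% of all genes. Adgre1, which encodes the macrophage antigen F4/80, was at 0.72, 1.06, 0.99, 1.00 and 0.58 at 14 days and at 2.10, 1.75, 1.25 and 1.44 at 7 days, a difference of -0.77 that was not called (limma adjusted p = 0.0869). Cd68 at -0.66 and Trem2 at -1.07 were not called. No gene of T cells, B cells, mast cells or MHC class II was called.

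Single immune genes that fell were C3ar1, the receptor of complement C3a, by 1.08, the myeloperoxidase gene Mpo by 1.07, and Ncf1, a subunit of the phagocyte oxidase, by 0.85. The interferon-induced Isg15 and Oas1a fell by 0.80 and 0.85. Il33, an alarmin of stromal cells, fell by 0.99 (limma adjusted p = 0.0469) with overlapping groups. C3ar1 was the 1 call among 13 complement genes, Mpo among 10 neutrophil genes and Il33 among 25 cytokine and chemokine genes. Isg15 and Oas1a were 2 of 21 interferon response genes, against 3.56% of all genes called lower. The chemokine gene Ccl2 at -0.92 and the cytokine gene Il6 at -0.75 were not called. All 6 calls were lost without 7-day replicate 2, with limma adjusted p of 0.0863 for C3ar1, 0.123 for Mpo, 0.121 for Ncf1, 0.191 for Isg15, 0.161 for Oas1a and 0.194 for Il33. Of the 6, Mpo lost its call without 1 further array, 7-day replicate 3, and the others without 3 or more.

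**Figure D3:**
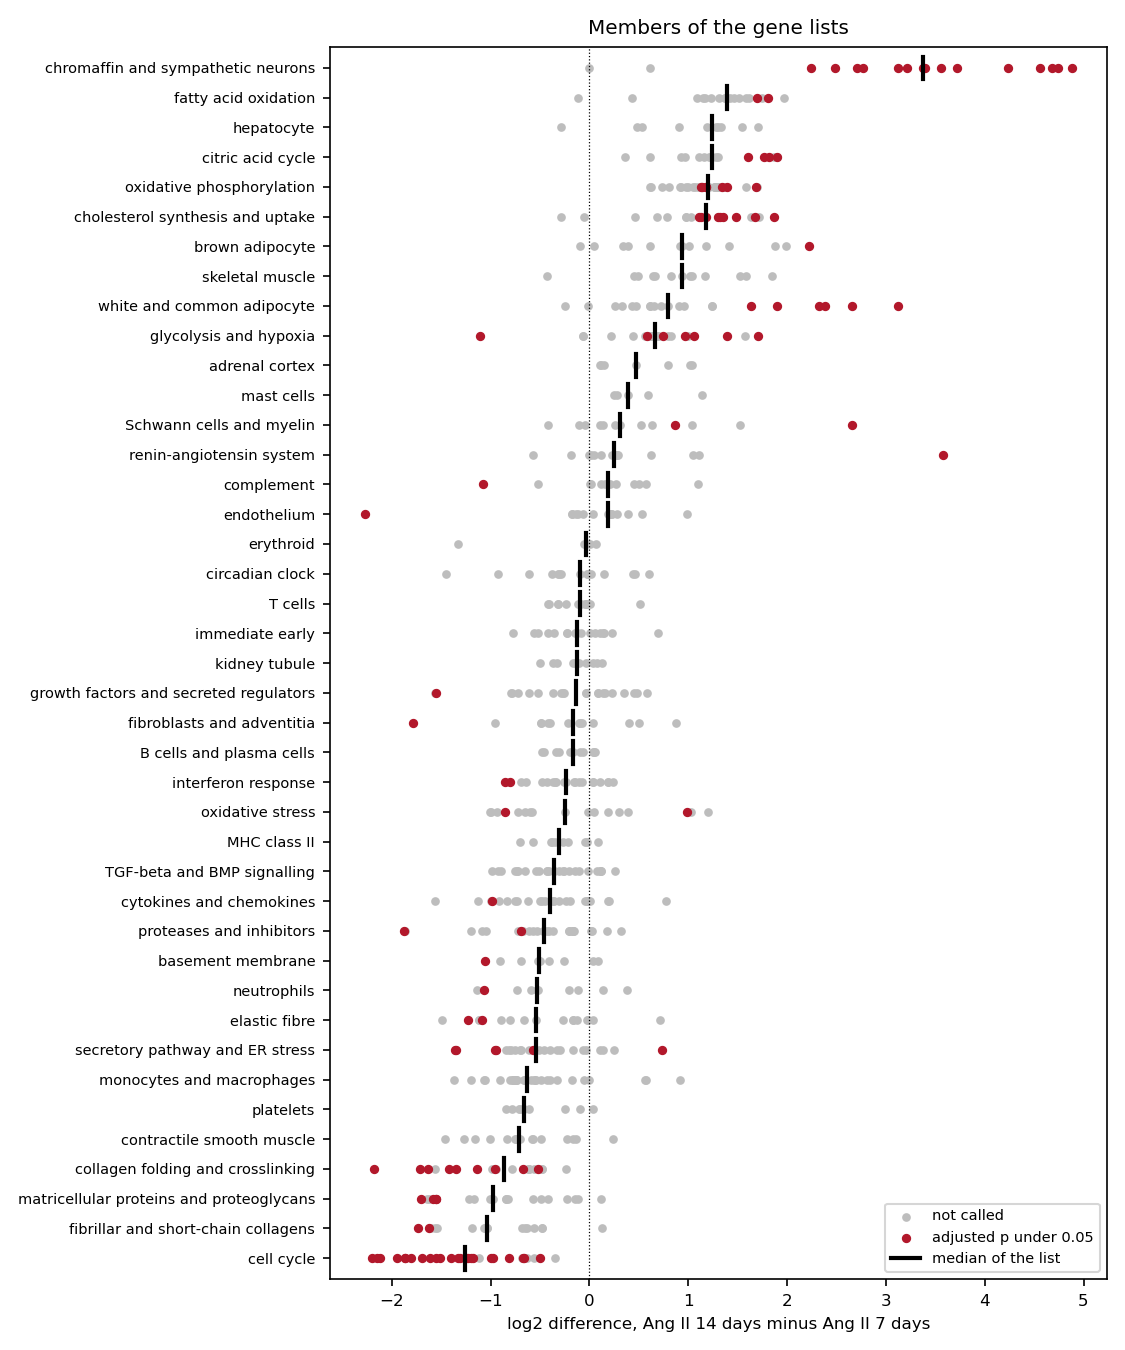
Log2 difference, 14-day minus 7-day Ang II aortas (horizontal), of each tested member of 41 gene lists, ordered by list median (black bars), with genes called at an adjusted p of 0.05 in red and the others in grey. Called members gather at the negative end for the cell cycle list, median -1.26, and at the positive end for the list of chromaffin cells and sympathetic neurons, median 3.38.

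The largest rises were those of genes of chromaffin cells and sympathetic neurons. Catecholamine cells take tyrosine through Th, Ddc and Dbh to noradrenaline and pack it with chromogranins into vesicles, and sympathetic fibres and ganglia lie beside the abdominal aorta. Of 17 genes of chromaffin cells and sympathetic neurons 15 rose, against 3.89% of all genes called higher, with a median of 3.38. The mean level of the list, chromaffin and sympathetic neurons, was 4.07, 3.76, 3.30, 3.66 and 4.62 on the 14-day Ang II arrays, against 0.50, 0.02, 0.06 and 2.17 on the 7-day Ang II arrays. The 7-day arrays were not alike, with replicate 4 far above the other 3. Saline aortas also spread widely, 1.28 to 4.02 at 14 days and 0.76 to 4.47 at 7 days, and 3 of the 4 arrays of 7-day Ang II lay below all 12 of them.

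Chgb, chromogranin B of secretory granules, was at 6.89, 6.90, 6.42, 6.89 and 7.60 at 14 days, against 2.23, 0.17, 0.59 and 5.27 at 7 days. It rose by 4.88 (1.09, limma adjusted p = 0.00924) without overlap. Tyrosine hydroxylase, Th, was at 3.99, 4.52, 4.05, 4.29 and 4.53 at 14 days and at 0.61, -0.05, 0.12 and 2.83 at 7 days. It rose by 3.40 (0.802, limma adjusted p = 0.0125), and Dbh, the enzyme that makes noradrenaline, by 2.48. Ddc, the decarboxylase that makes dopamine, rose by 4.68, and Slc18a2, the vesicular monoamine transporter, by 4.56. The differences of Th and Slc18a2 rest in part on spots at background. Both genes were well above background on 5 of 5 arrays at 14 days, against 2 of 4 for Th and 1 of 4 for Slc18a2 at 7 days.

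Pnmt, which turns noradrenaline into adrenaline in chromaffin cells of the adrenal medulla, was at -0.06, 0.13, -0.08, 0.31 and -0.10 at 14 days and at 0.04, 0.05, 0.17 and -0.09 at 7 days, with overlapping groups. None of 7 tested adrenal cortex genes was called, and the steroidogenic Star was at 0.47. Phox2a, a transcription factor that helps set the noradrenergic fate, rose by 2.77. Slc18a1, a second vesicular monoamine transporter gene of the list, rose by 2.71 without overlap (limma adjusted p = 0.047). Whether the rises came from chromaffin cells or from neurons was not tested.

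Most of the other rises picked by size were of genes used by neurons. Slc10a4, a transporter on aminergic vesicles, rose most of all genes called, by 5.63 (1.40, limma adjusted p = 0.0166), and was at 7.73, 6.93, 6.42, 6.56 and 8.06 at 14 days, against 1.36, -0.23, 0.06 and 4.83 at 7 days. The calcium sensor of vesicle release, Syt1, rose by 4.80, the vesicle fusion protein Snap25 by 4.74, the neurofilament gene Nefl by 4.72, Syt4 by 4.65, the neuronal RNA-binding protein gene Elavl2 by 4.53, Tmem130 by 4.52 and Rab3b of the vesicle cycle by 4.31. Fabp7, a fatty acid-binding protein of glia, rose by 4.39. No overlap of the groups was part of the rule that picked these genes. In each of them the lowest value of 14 days thus had to lie above 7-day replicate 4, the highest of its group.

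The calls of this group depended on 7-day replicate 2. Without it none of the 17 listed genes was called, with a median of 3.09, and limma adjusted p was 0.0708 for Chgb, 0.0776 for Th, 0.0788 for Dbh, 0.0796 for Ddc, 0.0819 for Slc18a2 and 0.0915 for Slc10a4. Without 7-day replicate 1, 6 of the 17 were called, and Ddc, Slc18a2, Slc10a4, Syt1, Snap25, Nefl, Syt4, Elavl2, Tmem130 and Rab3b lost their calls with p of 0.052 to 0.0749. Leaving out 7-day replicate 2 gave 0.0881 for Syt1, 0.0887 for Snap25 and for Tmem130, 0.0905 for Nefl, 0.0909 for Syt4, 0.102 for Elavl2, 0.086 for Rab3b and 0.052 for Fabp7. Elavl2 also lost its call without 7-day replicate 3 (0.0565), and both Elavl2 and Syt4 lost it without 14-day replicate 1 (0.0524 and 0.0576) or 5 (0.0632 and 0.0653). The median of the list was 2.84 within the first scan day and 4.18 within the second, 2.46 with the slide as a fixed block and 2.42 under scale normalization, and none of the 17 was called in any of these 4 fits. The part of nerve tissue taken along with the aorta in these values was not tested.

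**Figure D4:**
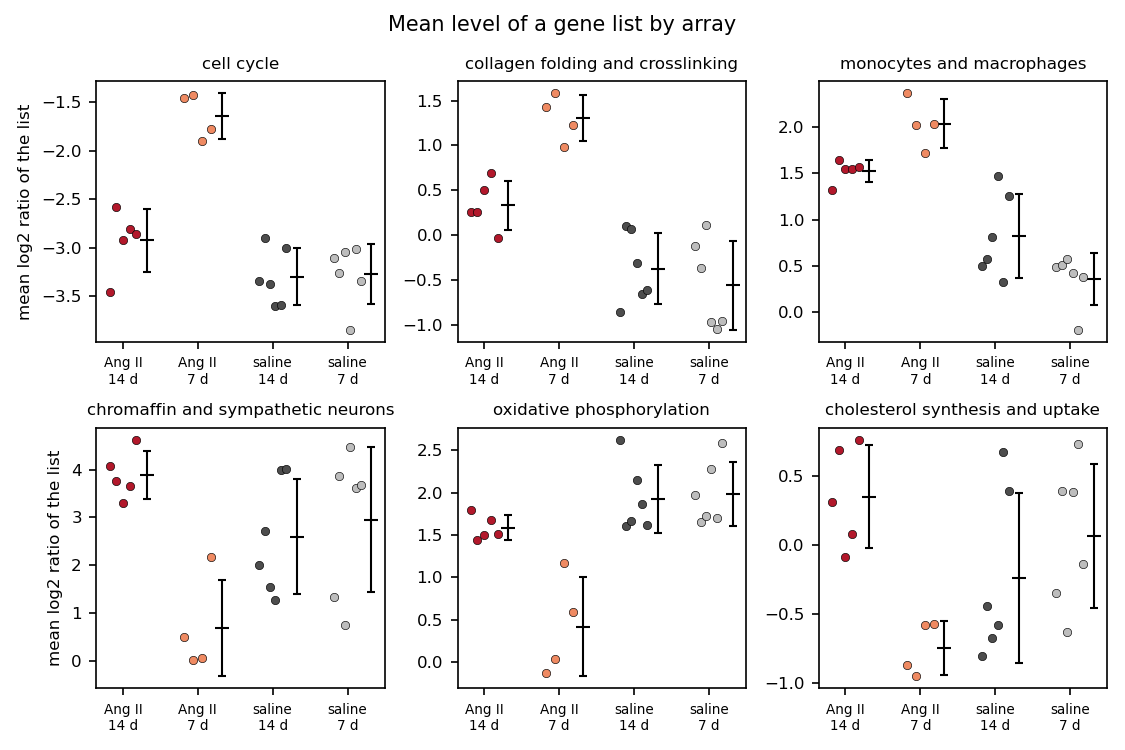
Mean log2 ratio of 6 gene lists (vertical) on each array of the 14-day Ang II, 7-day Ang II, 14-day saline and 7-day saline groups, with the mean and SD beside the points. The 7-day Ang II arrays lie above all others for the cell cycle list, and 3 of the 4 lie below all others for the list of chromaffin cells and sympathetic neurons.

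Of 13 genes of Schwann cells and myelin 2 rose, against 3.89% of all genes. Mag, a myelin adhesion protein, was at 2.43, 1.17, 1.78, 1.43 and 2.06 at 14 days, against 1.03, 0.88, 0.67 and 1.05 at 7 days. The groups were apart, and Mag rose by 0.87 (0.239, limma adjusted p = 0.0275). Its call was lost without 14-day replicates 1 or 5 or 7-day replicates 1, 2 or 3, with p of 0.0613 to 0.0949.

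Among 14 tested genes of the renin-angiotensin system 1 rose, a share near the 3.89% of all genes called higher, so that the result is about that gene, the type 1 receptor of Ang II itself, and not the list. Agtr1a was at 5.73, 4.55, 3.67, 3.79 and 5.99 at 14 days, against 1.08, 0.59, 1.28 and 1.71 at 7 days. The groups were well apart, and Agtr1a rose by 3.58 (0.818, limma adjusted p = 0.0104). Its mean was 3.65 in saline aortas at 14 days and 3.74 at 7 days, so that it was 1.09 higher in Ang II than in saline aortas at 14 days and 2.57 lower at 7 days. The precursor gene Agt was at 1.11 and Ace at 0.27, neither called. Without 7-day replicate 2 the adjusted p of Agtr1a was 0.0616, and with the tissue scores as covariates its difference was 0.68.

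Of 21 genes of the white and common adipocyte list 6 rose, against 3.89% of all genes, with a median of 0.80. The 6 encode enzymes that make fatty acids or triglycerides, but 2 listed enzymes of the same kind, the desaturase Scd1 at 0.91 and the acyltransferase Dgat1 at 0.80, were not called (limma adjusted p = 0.244 for each). Fasn, fatty acid synthase, was at 6.15, 4.61, 4.94, 5.53 and 5.16 at 14 days, against 0.72, 0.90, 3.60 and 3.40 at 7 days, without overlap. It rose by 3.12 (0.742, limma adjusted p = 0.0136), Elovl6, which elongates fatty acids, by 2.66, the citrate lyase gene Acly by 2.38 and the acetyl-CoA carboxylase gene Acaca by 2.32. The others were Acacb at 1.64 and Dgat2 at 1.90. Defining genes of fat cells were not called, with the adipokine gene Adipoq at 0.26, the lipid droplet gene Plin1 at 0.72 and the fatty acid-binding protein gene Fabp4 at -0.25. Pparg at 0.96, Lpl at 1.24 and Slc2a4 at 1.24 were not called either. Of the 21 differences of the list 19 were above 0. Elovl3 alone was called among 13 genes of brown adipocytes, at 2.22 with overlapping groups, and Ucp1, the uncoupling protein of brown fat, was at 0.92 (limma adjusted p = 0.249). Without 7-day replicate 2 none of the 6 genes was called, with limma adjusted p of 0.0874 for Fasn, 0.0905 for Elovl6, 0.0666 for Acly and 0.0829 for Acaca. Without 7-day replicate 1 Fasn, Elovl6 and Acaca missed the threshold too (0.0742, 0.096 and 0.0781), and Elovl3 lost its call without 14-day replicate 5 or 7-day replicates 1 or 2 (0.0528 to 0.128). The median of the adipocyte list was 1.07 within the first scan day with 2 calls, 0.25 within the second, 0.33 under scale normalization and 0.09 with the tissue scores as covariates, with 0 calls in the last 3, and under median centring it was 0.70 with 0 calls.

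Cholesterol synthesis, which sterol-sensing SREBP factors switch on as a whole, had 9 of 21 genes higher and none lower, against 3.89% of all genes called higher, with a median of 1.18, and 17 of the 21 did not overlap between the groups against 9.53% of all genes. Insig1, which holds SREBP factors in the endoplasmic reticulum, was at 1.29, 1.17, 0.86, 1.39 and 1.07 at 14 days and at -1.22, -1.33, 0.17 and -0.48 at 7 days, a rise of 1.87 (0.403, limma adjusted p = 0.00683). Fdft1, squalene synthase, was at 0.87, 0.88, 0.12, 0.21 and 0.89 at 14 days and at -1.29, -1.46, -0.79 and -0.80 at 7 days. It rose by 1.68 (0.40, limma adjusted p = 0.0133). Sc5d, a late desaturase of the pathway, rose by 1.48 and kept its call without any 1 array, and Hsd17b7 by 1.35.

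Without 7-day replicate 2 Sc5d was the 1 gene of this list still called, with limma adjusted p of 0.0566 for Insig1, 0.0763 for Fdft1 and 0.129 for Hsd17b7. The list had 2 calls without 7-day replicate 1 (Fdft1 at 0.0523, Hsd17b7 at 0.11), 3 without 14-day replicate 5, 4 without 14-day replicate 1 or 2, and 1 with the slide as a fixed block. Hsd17b7 lost its call without 14-day replicates 1, 2 or 5 or 7-day replicate 4 as well. The median was 1.04 within the first scan day and 1.05 within the second, with 1 and 0 calls. It was 1.09 under median centring and 1.03 under scale normalization, with 0 calls in each, and 0.19 with the tissue scores as covariates, also with 0 calls. The mean level of the list, cholesterol synthesis and uptake, was -0.09 to 0.76 on the 14-day Ang II arrays, -0.95 to -0.57 on the 7-day Ang II arrays, -0.80 to 0.67 in saline at 14 days and -0.63 to 0.73 in saline at 7 days. The 2 Ang II groups were apart, and the 7-day arrays overlapped the lowest saline arrays.

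The promoter of Hmgcs1, which makes the precursor of mevalonate, is shown as the one among the risen genes of this pathway with the sterol element TCACNCCAC. In RefSeq promoters (GRCm38.p6, 250 bases before the start site, both strands) that motif occurred in 1 of 8 risen genes with a promoter in the table (12.5%), against 1.23% of all 12247 genes, and CCAAT in 8 of 8, against 39.6%. Over all 14 genes of the list with a promoter, called or not, the sterol element occurred in 1 (7.14%) and CCAAT in 14. The window is chr13:119690201-119690350 on the plus strand, with the sterol element at -137 and the reverse of CCAAT at -45 in capitals.
Hmgcs1: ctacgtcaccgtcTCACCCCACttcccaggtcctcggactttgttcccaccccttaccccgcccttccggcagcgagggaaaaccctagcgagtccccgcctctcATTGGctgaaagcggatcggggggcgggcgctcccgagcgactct
Hmgcs1 was at 1.59, 1.83, 0.94, 1.11 and 2.31 at 14 days and at -0.36, -0.12, 1.14 and 0.36 at 7 days. It rose by 1.30 (0.405, limma adjusted p = 0.0455), with 7-day replicate 3 inside the range of 14 days.

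Mitochondrial genes had higher values nearly throughout. In oxidative phosphorylation 7 of 31 genes rose, against 3.89% of all genes, and all 31 differences were above 0, with a median of 1.20. Uqcrc1, a core subunit of complex III, was at 1.97, 1.81, 1.96, 2.24 and 2.07 at 14 days and at 0.35, 0.32, 1.51 and 0.50 at 7 days, with replicate 3 of 7 days nearest to the 14-day arrays. It rose by 1.34 (0.412, limma adjusted p = 0.0432), Uqcrfs1, the iron-sulfur subunit of complex III, by 1.69, Cox5a of complex IV by 1.39 and Ndufa9 of complex I by 1.18. Of 17 genes in the citric acid cycle list 4 rose, against the same 3.89%, with a median of 1.24. Among them were Suclg1 by 1.90 and the pyruvate dehydrogenase gene Pdhb by 1.82. Mdh1, which rose by 1.60, is also counted there, although its malate dehydrogenase is cytosolic and not mitochondrial. The mitochondrial malate dehydrogenase gene Mdh2 was at 0.97 and was not called (limma adjusted p = 0.0983). Of 19 fatty acid oxidation genes Hadhb and Acaa2, which carry out the last steps of beta-oxidation, rose by 1.81 and 1.70, with a median of 1.39 over the list and 2 calls of 19 against that share.

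These calls depended on single arrays. In oxidative phosphorylation 0 genes were called without 14-day replicate 1 or 5 or 7-day replicate 1 or 2, at most 2 without 14-day replicate 2, 3 or 4 or 7-day replicate 4, and 18 without 7-day replicate 3. Limma adjusted p without 7-day replicate 1 was 0.136 for Uqcrc1, 0.149 for Uqcrfs1, 0.193 for Cox5a, 0.179 for Ndufa9, 0.194 for Hadhb, 0.177 for Acaa2, 0.113 for Suclg1 and 0.0934 for Pdhb, and without 7-day replicate 2 it was 0.052 for Mdh1. The citric acid cycle kept 1 call without 7-day replicate 1, 0 without 7-day replicate 2, 2 without 14-day replicate 1 or 7-day replicate 4, and had 9 without 7-day replicate 3. The mean level of oxidative phosphorylation was 1.79, 1.44, 1.50, 1.68 and 1.51 on the 14-day Ang II arrays, against -0.12, 0.04, 1.17 and 0.59 on the 7-day Ang II arrays. Replicates 1 and 2 of 7 days were lowest. Saline arrays lay at 1.60 to 2.62 at 14 days and 1.65 to 2.58 at 7 days. The brown adipocyte list, which shares the gene Cox8b with oxidative phosphorylation, ranked the 4 arrays of 7 days in the same order. The order of the 5 arrays of 14 days differed between the lists. Means of the brown adipocyte list were 4.15, 4.20, 3.86, 4.48 and 4.50 on the 14-day Ang II arrays against 2.14, 2.76, 4.38 and 3.72 on the 7-day Ang II arrays. With the tissue scores as covariates no gene of oxidative phosphorylation was called and the median was 0.59. The median of oxidative phosphorylation was 1.33 within the first scan day and 0.45 within the second, that of the citric acid cycle 1.44 and 0.54, and that of fatty acid oxidation 1.58 and 0.40. None of the 3 lists had a call within the second scan day, under median centring, under scale normalization or with the slide as a fixed block.

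Of 22 genes of glycolysis and hypoxia 6 rose, against 3.89% of all genes, and 1 fell, against 3.56%. None was called under median centring, scale normalization or the covariates, and 1 with the slide as a fixed block. Pfkm, the muscle form of phosphofructokinase, was at 0.14, 0.11, -0.02, 0.07 and 0.19 at 14 days and at -0.55, -0.73, -0.90 and -1.68 at 7 days, a rise of 1.06 (0.214, limma adjusted p = 0.00409) kept without any 1 array. Aldolase A (Aldoa) rose by 1.39 and the lactate dehydrogenase subunit Ldhb by 1.71, Ldhb with overlapping groups. Slc16a3, the lactate exporter of glycolytic cells, fell by 1.11. Aldoa, Ldhb and Slc16a3 lost their calls without 7-day replicate 1 or 2 (limma adjusted p of 0.0753 to 0.119), Aldoa also without 14-day replicate 1 and Slc16a3 without 14-day replicate 5. The superoxide dismutase gene Sod1 rose by 0.99 (limma adjusted p = 0.0104), and its p was 0.0678 without 7-day replicate 2.

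Markers of other neighbouring tissues were uneven within the groups. None of 10 hepatocyte, 13 skeletal muscle or 10 kidney tubule genes tested was called. The hepatocyte mean was 5.21 on 14-day replicate 2 and 1.43 to 2.92 on the other arrays of 14 days, against 1.28 to 2.13 at 7 days. The skeletal muscle mean was 3.04 and 3.91 on 14-day replicates 1 and 2 and 0.04 to 0.76 on the other 3, against 2.76 on 7-day replicate 2 and -0.05 to 0.15 on the other 3 of that time. The adrenal cortex mean was 2.73 on 14-day replicate 2 and 0.84 to 0.91 on the other 4, against 0.47 to 0.89 at 7 days. The defining genes Slc34a1 and Lrp2 of kidney tubule, Cyp11a1 of adrenal cortex and Ttr of hepatocytes were well above background on 0, 1, 2 and 2 of the 5 arrays of 14 days and on none of those of 7 days. Neither Ttr (limma adjusted p = 0.115) nor Cyp11a1 (limma adjusted p = 0.75) was called. No fold is given for them, because only 2 of the 5 arrays of 14 days were well above background. Ttr was at 3.35 on 14-day replicate 2 and at -0.03 to 0.45 on the other arrays of 14 days.

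Whether the difference between the Ang II times exceeded that between the saline times was tested as an interaction in the same model. It was called for 193 genes (1.03% of those tested), 46 in the positive direction (0.246%) and 147 in the negative (0.787%), and 45 and 139 of these were also called higher and lower between the Ang II times. Of the 30 cell cycle genes 16 were called negative, with a median of -1.27. Kif20a was at -2.13 (limma adjusted p = 0.00368) and Mki67 at -2.29 (limma adjusted p = 0.0257). Lox, Ckap4, Fbln2, Piezo2, C3ar1 and Il33 were also negative, at -2.57, -2.38, -1.51, -1.53, -1.50 and -1.63, and 3 of the 20 genes of collagen folding and crosslinking were called. Positive calls among the named genes included Chgb at 5.63 (limma adjusted p = 0.0487), Fdft1 at 2.24, Sc5d at 1.77 and Pfkm at 1.14. Th at 3.53 (limma adjusted p = 0.0787), Agtr1a at 3.67 (0.0767) and Fasn at 3.46 (0.0758) were not called. The count was 59, 110 and 78 without 14-day replicates 1, 3 and 5, 57 and 28 without 7-day replicates 1 and 2, and 0 with the tissue scores as covariates. It was 82 with the scan day as a block, 28 with the slide as a fixed block, and 1 and 0 within the first and the second scan day. Side by side, and with the Ang II arrays shared, the median of the cell cycle list was 0.39 for Ang II over saline at 14 days and 1.60 at 7 days. For collagen folding and crosslinking these medians were 0.83 at 14 days and 1.90 at 7 days, for oxidative phosphorylation -0.35 and -1.55, and for chromaffin cells and sympathetic neurons 1.36 and -2.19.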

How the data were processed

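Expression was measured on 2-colour Agilent arrays, 1 aorta each, with the aorta in Cy5 and a common reference in Cy3. Mean and background spot intensity and the log10 ratio came from Agilent Feature Extraction 9.5.3.1, per the file headers and the submitters' processing notes. The table of log2 ratios deposited for the series has a centring that is not given in the sources used here. Replicates were not pooled, and precision is limited by how many arrays each group had.

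Intensities were background-corrected (normexp, offset 50) and loess-normalized within arrays, with control and outlier-flagged spots at weight 0 and flagged values left out, in limma 3.58.1 (R 4.3.3, data.table version 1.17.8, statmod 1.5.0). Of 27823 probes with the aorta channel well above background on at least 3 of 35 arrays, the one of highest mean intensity stood for each of 18670 genes. Probes of the array were named by accession (24375), current symbol (6301), older symbol (2426) or the file's own name (8072). Model: 7 group means over all 35 arrays, moderated tests, Benjamini-Hochberg over all genes, called at an adjusted p of 0.05. P-values measure the spread between aortas. On simulated data for this comparison (18535 genes) 95 of 100 genes changed by 2 log2 units and 60 of 100 changed by 1 were recovered. There were 6 false calls. The simulated noise was independent between genes and held no variation shared across an array, so these rates are not the power in the real data.

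The 140 genes named by rule were the 12 largest called rises and falls without overlap, up to 4 called genes of each of 41 lists (704 genes, 25 not tested), and a fixed set. Members and lists were chosen with earlier results of these data known, and further list members named beside them were chosen after their values were seen. Alternatives changed samples, normalization, background, starting values, filter, probe choice, weights, blocks, covariates and single arrays. Dissected and 28-day aortas entered no comparison reported here. They served in the shared spread, the filter on dim probes and the choice of probe for each gene. Results for some genes are not reported here.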

Additional observations from a re-analysis of the deposited data

Results flagged for a closer look

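In 17 of 280 groups of 4 or 5 arrays tested, 1 array stood far from the rest of its group by Dixon's criterion, which chance meets in about 1 in 20 groups, and 16 of them are given here. On 14-day replicate 1 these were Idh3a at 3.14 (others 1.40 to 1.72), Nuf2 at -3.47 (others -2.68 to -2.41) and Uqcrfs1 at 1.95 (others 1.64 to 1.69). On 14-day replicate 2 they were the adrenal gene Star at 3.15 (others -0.36 to 0.55) and the hepatocyte gene Ttr at 3.35 (others -0.03 to 0.45), and on 14-day replicate 5 S100a4 at -3.09 (others -2.21 to -1.85). On 7-day replicate 2 the skeletal muscle genes Acta1 and Ckm stood at 3.04 (others 1.59 to 1.80) and 2.83 (others 0.19 to 0.45), Col5a2 at 3.00 (others 2.16 to 2.23) and Loxl3 at 3.61 (others 3.00 to 3.11). On 7-day replicate 3 the T cell gene Cd3d stood at 2.85 (others 0.29 to 0.71), Cd68 at -0.90 (others 0.08 to 0.21) and Uqcrc1 at 1.51 (others 0.32 to 0.50). On 7-day replicate 4 Slc18a2 stood at 3.53 (others 0.26 to 0.31), Syt1 at 4.17 (others -0.10 to 0.55) and Syt4 at 2.25 (others 0.09 to 0.37).

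For 18 of the 140 named genes the difference between the Ang II times itself differed from that between the saline times by the interaction in limma, and 17 of them are given here. Falls beyond the saline difference were found for the cell division genes Birc5 at -2.01, Ccna2 at -1.84, Cenpe at -2.08, Kif20a at -2.13, Mki67 at -2.29, Nuf2 at -1.76 and Rrm2 at -1.84. The same held for Lox at -2.57, Ckap4 at -2.38, Il33 at -1.63, Piezo2 at -1.53, Fbln2 at -1.51 and C3ar1 at -1.50. Rises beyond the saline difference were found for Chgb at 5.63, Fdft1 at 2.24, Sc5d at 1.77 and Pfkm at 1.14. Among these genes the 2 Ang II groups overlapped only for Piezo2 and Il33.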

How the results depend on the processing

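The 1390 genes called between the Ang II times became 3023 with only the groups compared in the fit, 123 under median centring, 43 under scale normalization, 3844 with array weights, 156 with the slide as a fixed block, 826 with the scan day as a block, 146 and 2 within the first and the second scan day, and 1 with the tissue scores as covariates. Leaving out 1 array gave 170 to 1284. The 193 genes of the interaction became 736 with only the groups compared, 30 under median centring, 9 under scale normalization, 876 with the log ratios of the scanner software, 867 with the deposited series table, 102 with no filter on dim probes, 2634 with array weights, 28 with the slide as a fixed block, 82 with the scan day as a block, 1 and 0 within the scan days, and 0 with the covariates. Leaving out 1 array gave 28 to 209 for it. The cause of these shifts was not tested.

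Of the 80 named genes called, 11 kept the call without any 1 array, 3 kept it under scale normalization, 15 with the slide as a fixed block and 27 under median centring. All 80 kept their sign in every alternative except the tissue scores as covariates, which hold neuronal genes. There the values were -0.21 for Nefl, -0.21 for Slc10a4, -0.15 for Slc18a2, -0.21 for Snap25, -0.19 for Syt1, -0.14 for Syt4 and -0.26 for Tmem130. Replicate numbers of the titles share only a number: same-numbered arrays had correlations of deviations of 0.0954, 0.0836, -0.0416 and -0.0611. Not every array correlated best with its own number, and with the replicate block 1608 and 294 genes were called. For genes named by rule that were not well above background on any array of 7 days no fold is given.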

Other observations

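Genes outside the lists, chosen here after their values were seen, added a group of falls with small errors. M1ap, a gene of male meiosis, had log2 ratios of 0.19, 0.46, 0.37, 0.50 and 0.08 at 14 days, against 1.73, 1.92, 2.01 and 1.44 at 7 days. Its fall of 1.46 (standard error 0.143, limma adjusted p = 4.12e-07) had no overlap, and the interaction with saline time was -1.47 (limma adjusted p = 0.000164). The connexin gene Gjb5 was at 0.26, 0.23, 0.62, 0.64 and 0.70 at 14 days and at 2.59, 2.01, 2.06 and 1.84 at 7 days, a fall of 1.64 (0.2, limma adjusted p = 2.95e-05). The groups were apart for Gjb5. Gdf6, a ligand of the BMP family, fell by 1.73, the procollagen protease gene Adamts3 by 1.16 and Flrt2, a guidance and adhesion protein, by 1.09, each also called in the interaction, at -1.79, -1.34 and -1.31. The imprinted long RNA H19 fell by 1.65, and its interaction was not called (limma adjusted p = 0.0752).

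Among rises outside the lists, chosen in the same way, were Erbb3, the neuregulin receptor of Schwann cells, at 1.89 with an interaction of 2.55, the microtubule protein gene Mapt at 3.20 and the phosphatase gene Dusp26 at 2.62. The mitochondrial citrate carrier Slc25a1 rose by 2.13 with an interaction of 2.32, and the sterol reductase gene Tm7sf2 by 1.65 with an interaction of 1.98. Sirt3, a mitochondrial deacetylase, rose by 1.20 with an interaction of 1.42.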
